A study of Mus musculus with 6 samples.

Results

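The genes described here encode 10 neuronal calcium-binding proteins: Calb1, Calb2, Pvalb, Hpca, Hpcal1, Ncald, Vsnl1, Necab1, Necab2 and Scgn. They were chosen by name, and each had 1 row among the 49568 gene rows of every sample. The values come from neurons of the preBötzinger complex (preBötC), the brainstem site that generates the inspiratory rhythm, in mice at postnatal day 2. Each of the 6 samples held 15 neurons aspirated from a slice of 1 animal. All animals were Dbx1CreERT2; Rosa26tdTomato offspring of dams given tamoxifen during gestation. Dbx1 samples (n = 3) held neurons with tdTomato fluorescence, which marks descendants of Dbx1-expressing progenitors. Non-Dbx1 samples (n = 3) held neuronal somata without it, so a descendant in which the reporter had not recombined would have been counted as non-Dbx1. The non-Dbx1 neurons are defined by a missing label and can be of several kinds.

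The 10 proteins bind calcium through EF-hands, a helix-loop-helix fold. Calbindin (Calb1), calretinin (Calb2) and parvalbumin (Pvalb) are buffers that take up calcium after a spike and are classic labels of interneuron types. Secretagogin (Scgn) is a hexa-EF-hand relative of calbindin and calretinin found in neuroendocrine cells and some interneurons. Hippocalcin (Hpca), Hpcal1, neurocalcin delta (Ncald) and visinin-like 1 (Vsnl1) are neuronal calcium sensors, which carry a myristoyl group and move to membranes when calcium rises. Necab1 and Necab2 pair an EF-hand part with a monooxygenase-like part and mark subsets of excitatory and inhibitory neurons in the spinal cord and brain.

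Reads on genes numbered from 6464675 to 9432958 in a library. These totals and the reads per gene were recovered from the steps between the deposited RPKM values (reads per kilobase of exon, scaled to the reads assigned to genes in that library). The summed RPKM of 6 neuronal markers lay between 993.9 and 1708 in the Dbx1 samples and between 992.6 and 1380 in the non-Dbx1 samples. Markers of other cells were unevenly spread. The 4 blood genes summed to between 89.6 and 504.7 RPKM in the Dbx1 samples and between 732.5 and 13950 in the non-Dbx1 samples, the highest in non-Dbx1 replicate 1. The 4 oligodendrocyte genes summed to 321 in that sample and to at most 23.0 in every other. The catecholaminergic genes Th, Dbh and Npy summed to 8253 in non-Dbx1 replicate 2, and to at most 36.0 elsewhere. The endothelial genes reached 63.8 in that sample against at most 1.64 in others, and the cholinergic genes 62.3 in non-Dbx1 replicate 3 against at most 20.4. No member had a value that set the non-Dbx1 samples apart as the blood genes did.

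Hpca, Hpcal1 and Ncald are close relatives, so the first question was whether their reads can be told apart. Their coding sequences have 579 bases each in GENCODE vM21 and were identical in all 3 genes at 428 of them (73.9%). The 60 bases with the most identity are shown because they are the hardest place to separate the genes. They are bases 289 to 348 of the coding sequence, which run into a calcium-binding loop, and capitals mark the 6 positions at which the genes differ.
Hpca: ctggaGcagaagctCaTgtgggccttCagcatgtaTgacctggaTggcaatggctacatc
Hpcal1: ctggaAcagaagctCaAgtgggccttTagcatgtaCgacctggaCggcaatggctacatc
Ncald: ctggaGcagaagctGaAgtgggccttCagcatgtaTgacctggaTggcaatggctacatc
Even here the 3 genes differed from each other. The longest identical run between coding sequences was 46 bases for Hpca and Ncald, 38 for Hpca and Hpcal1 and 18 for Hpcal1 and Ncald. Coding identity was 86.0% between Hpca and Hpcal1, 78.6% between Hpca and Ncald, and 80.1% between Hpcal1 and Ncald. Vsnl1 was 71.1% to 73.4% identical to these 3. The other families were further apart, with 65.7% between Calb1 and Calb2, 56.1% and 54.6% between Scgn and these, and 59.7% between Necab1 and Necab2.

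No stretch of 50 bases in the annotated transcripts of a member occurred in another member. For Calb1, Calb2, Pvalb, Vsnl1, Necab2 and Scgn none occurred in the transcripts of any other gene either. The share found in other genes was 0.590% for Hpca, 4.89% for Ncald, 6.50% for Hpcal1 and 6.96% for Necab1. Some reads were shorter, and at 35 bases Hpca shared 12 stretches with Ncald (0.401% of those in Hpca) and 5 with Hpcal1 (0.167%), so a short read from these places cannot be assigned to 1 gene. No other pair of members shared a stretch of 35 bases. The share found in any other gene at that length was 1.90% for Hpca, 6.04% for Ncald, 7.90% for Necab1 and 16.2% for Hpcal1. Counting ignored strand, so reads from Necab1 and from the antisense gene Gm11837 cannot be told apart over the 410 exonic bases they share. The same holds for Ncald and the antisense gene Gm28221 over 347 bases, and for Hpca and Tmem54 over 57 bases. Ncald also shares 286 exonic bases with Gm49397, a transcript on its own strand.

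The 10 genes fell into a group of 6 with many reads in every sample and a group of 4 that were low or missing in some samples. Vsnl1, Hpcal1, Necab2, Hpca, Calb2 and Ncald had mean RPKM between 17.9 and 163 over the 6 samples. Necab1, Calb1, Scgn and Pvalb had mean RPKM between 0.912 and 3.70. Because each sample is a pool of 15 neurons, fewer cells with a transcript and less transcript per cell cannot be told apart.

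**Figure D1:**
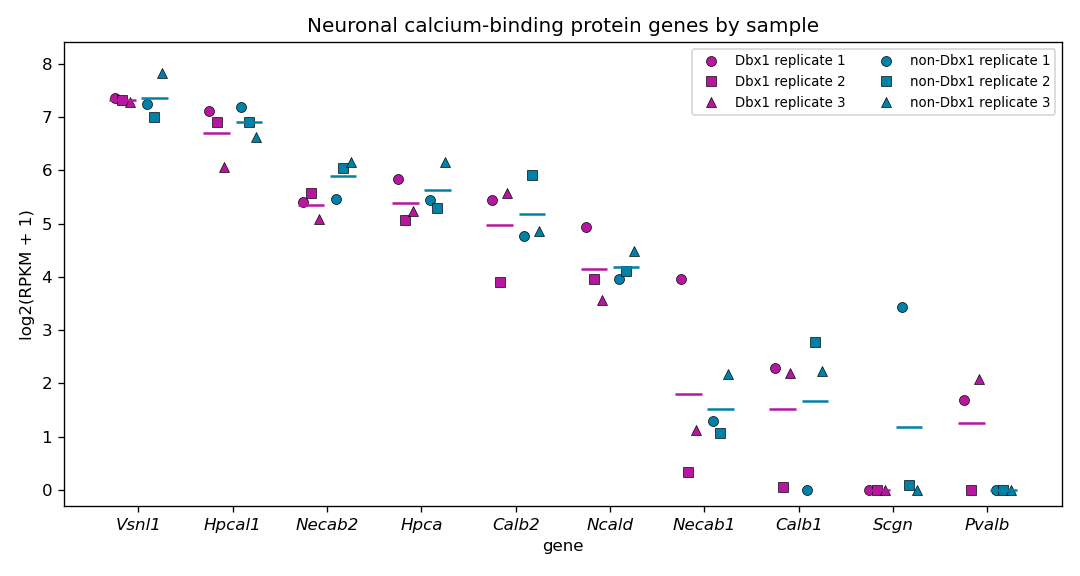
Log2(RPKM + 1) of the 10 genes in each sample, in order of mean RPKM, with Dbx1 samples in magenta, non-Dbx1 samples in blue, replicates 1, 2 and 3 as circle, square and triangle, and the mean of each group as a bar. The points of Vsnl1 lie close together at the top, those of Necab1 and Calb1 spread widely, and Scgn and Pvalb have most points at 0.

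Of the calcium sensors, Vsnl1 (ENSMUSG00000054459) on chromosome 12 from 11325242 to 11436613 of GRCm38 was the highest, ranking 222 among all gene rows by mean RPKM. The protein, also called VILIP-1, acts on cyclic nucleotide and receptor signalling. Its RPKM was 162.5, 157.7 and 155.1 in Dbx1 replicates 1, 2 and 3, against 150.4, 127.5 and 225 in the non-Dbx1 replicates in the same order, which rest on 1881 to 4111 reads each. The Dbx1 values lay within the range of the non-Dbx1 values. The means were 158 ± 3.76 and 168 ± 51.2 (SD, n = 3), and the highest value was 1.77 times the lowest.

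Hpcal1 (ENSMUSG00000071379), which encodes VILIP-3, lies on chromosome 12 from 17690856 to 17791933. Here and below values follow the replicate order. RPKM of Hpcal1 was 138, 119 and 66.2 for Dbx1, against 145, 119 and 98.1 for non-Dbx1 neurons. The groups overlapped, with the low value in Dbx1 replicate 3. The means were 108 ± 37.1 and 121 ± 23.6 (SD, n = 3).

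Hpca (ENSMUSG00000028785) encodes hippocalcin, a sensor linked to the slow afterhyperpolarization of hippocampal neurons, and lies on chromosome 4 from 129111570 to 129122036. The Dbx1 samples measured 56.0, 32.7 and 36.7 RPKM, the non-Dbx1 samples 42.5, 38.2 and 70.2. Each group had 1 higher sample, Dbx1 replicate 1 and non-Dbx1 replicate 3, and the groups overlapped.

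Ncald (ENSMUSG00000051359), on chromosome 15 from 37366175 to 37792570, encodes a sensor that binds clathrin and cytoskeletal proteins. Dbx1 neurons had 29.8, 14.6 and 10.8 RPKM of Ncald, compared with 14.6, 16.2 and 21.5 for non-Dbx1 neurons. The Dbx1 samples held both the highest and the lowest value. The 4 sensors together summed to between 268.8 and 415 RPKM in a sample.

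Among the buffers, Calb2 (ENSMUSG00000003657) was the one with reads in every sample. It lies on chromosome 8 from 110137502 to 110168210. RPKM of Calb2 was 42.3, 13.9 and 46.6 for Dbx1, against 26.3, 59.5 and 28.1 for non-Dbx1 neurons, with 200 to 971 reads behind each. Dbx1 replicate 2 was the lowest and non-Dbx1 replicate 2 the highest, a ratio of 4.27. The group means were 34.3 ± 17.7 and 38.0 ± 18.7 (SD, n = 3).

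Calb1 (ENSMUSG00000028222), on chromosome 4 from 15881264 to 15908064, was lower and uneven. RPKM of Calb1 was 3.91, 0.0469 and 3.58 for Dbx1, against 0, 5.82 and 3.73 for non-Dbx1 neurons. Dbx1 replicate 2 had 2 reads and non-Dbx1 replicate 1 had none, while the other 4 samples had between 141 and 282. A count of 3 reads, taken as the limit of detection, corresponded to 0.0820 RPKM or less in every sample. Such limits cover counting error only, since reads of amplified complementary DNA are not independent molecules.

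Pvalb (ENSMUSG00000005716), on chromosome 15 from 78191114 to 78206400, had reads in 2 of the 6 samples. The Dbx1 samples measured 2.24, 0 and 3.24 RPKM, from 30, 0 and 38 reads, and all 3 non-Dbx1 samples were at 0. Both positive samples were Dbx1 samples, and the groups overlapped at 0. For this gene, 3 reads correspond to 0.275 RPKM or less.

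Scgn (ENSMUSG00000021337), on chromosome 13 from 23953456 to 23991214, came almost wholly from a single sample. It had 106 reads (9.79 RPKM) in non-Dbx1 replicate 1, 1 read (0.0698 RPKM) in non-Dbx1 replicate 2 and none in the other 4 samples. Non-Dbx1 replicate 1 thus held 99.3% of the summed RPKM of Scgn. The blood and oligodendrocyte sums were also highest in that sample, and their part in the Scgn value was not tested.

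Necab2 (ENSMUSG00000031837), on chromosome 8 from 119446719 to 119472640, encodes a partner of adenosine and metabotropic glutamate receptors. Dbx1 neurons had 41.1, 46.7 and 32.8 RPKM of Necab2, compared with 43.2, 65.3 and 70.6 for non-Dbx1 neurons. Non-Dbx1 replicates 2 and 3 were above every Dbx1 sample and non-Dbx1 replicate 1 was not. The means were 40.2 ± 7.0 and 59.7 ± 14.5 (SD, n = 3).

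Necab1 (ENSMUSG00000040536), on chromosome 4 from 14952245 to 15149794, was lower and uneven. The Dbx1 samples measured 14.7, 0.260 and 1.19 RPKM, the non-Dbx1 samples 1.47, 1.11 and 3.51. Dbx1 replicate 1 had 774 of the 1188 reads, and Dbx1 replicate 2 had 13. The highest value was 56.4 times the lowest, and both belonged to Dbx1 samples.

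**Figure D2:**
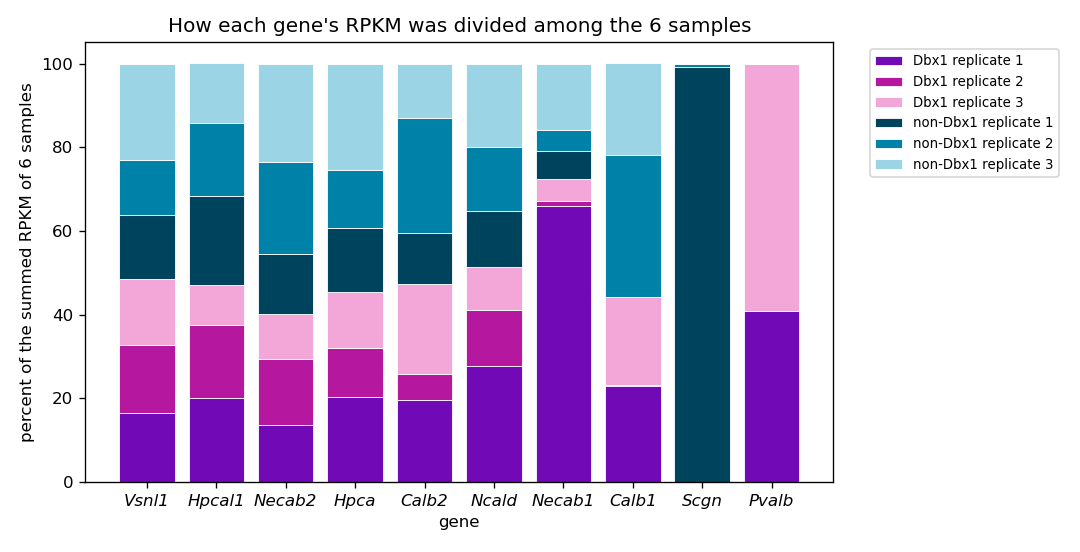
Percent of each gene's summed RPKM that came from each of the 6 samples, with Dbx1 samples in purple to pink and non-Dbx1 samples in blue. No sample held more than 25.4% of Vsnl1, Hpcal1, Necab2 or Hpca, while 66.0% of Necab1 came from Dbx1 replicate 1 and 99.3% of Scgn from non-Dbx1 replicate 1.

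An even division would give each sample 16.7% of a gene's summed RPKM. The sample with the most held 21.2% of Hpcal1, 23.0% of Vsnl1, 23.6% of Necab2, 25.4% of Hpca, 27.5% of Calb2 and 27.7% of Ncald. Over the 17614 genes tested below, each above 0 in at least 3 samples, the median of this share was 32.3%. Calb1 had 34.1% in its highest sample, Pvalb 59.1% and Necab1 66.0%. The within-group SD of log2(RPKM + 1) ran from 0.298 for Vsnl1, 0.319 for Necab2, 0.431 for Hpca, 0.439 for Hpcal1 and 0.538 for Ncald to 0.797 for Calb2, 1.37 for Calb1 and 1.41 for Necab1. The median over the tested genes was 0.551, so 5 of these 8 genes varied less between samples of a group than that median and 3 varied more. The median was not matched for level. By mean RPKM the 5 lay between percentiles 84.3 and 98.7 of the tested genes, Calb2 at 91.9, and Calb1 and Necab1 at 46.4 and 52.7.

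The order of mean RPKM ran from Vsnl1 through Hpcal1, Necab2, Hpca, Calb2, Ncald, Necab1, Calb1 and Scgn to Pvalb. Each gene was compared with the next by an exact two-sided sign-flip permutation test over the 6 samples, whose smallest p is 0.0312. The p-values were adjusted over the 9 pairs and read at a threshold of 0.1. The pairs were set by the order in these same samples, so the tests give that order no independent support. Vsnl1 was above Hpcal1 in 6 of 6 samples, by 0.53 ± 0.53 on the log2 scale (SD, n = 6; adjusted exact p = 0.0936). Hpcal1 was above Necab2 in 6 of 6 samples, by 1.18 ± 0.50 (adjusted exact p = 0.0936). Ncald was above Necab1 in 6 of 6 samples, by 2.51 ± 0.89 (adjusted exact p = 0.0936). The step from Calb2 to Ncald, 0.91 ± 0.83, held in 5 of 6 samples (adjusted exact p = 0.141).

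The remaining neighbours differed by less than their spread. Necab2 exceeded Hpca by 0.12 ± 0.44 and Hpca exceeded Calb2 by 0.43 ± 0.78, each in 4 of 6 samples (adjusted exact p = 0.683 and 0.394). Among the low genes, the steps from Necab1 to Calb1, Calb1 to Scgn and Scgn to Pvalb were 0.07 ± 1.31, 1.01 ± 2.36 and −0.04 ± 1.95 (adjusted exact p = 0.984, 0.516 and 1.0).

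This order depends on the gene length by which reads were divided. The length behind the deposited RPKM of Calb2 and Pvalb, 1906 and 1687 bases, equals the sum of all distinct annotated exons, in which overlapping exons of different transcripts are counted repeatedly. Of 11242 genes with at least 100 reads for which that sum and the merged exon length differ, 2234 had exactly the former and 20 exactly the latter. Most of these genes matched neither exactly, so the rule behind their lengths is not settled here. For Hpca the length was 5693 bases, 1.95 times the merged exons and 3.08 times the longest coding transcript. For Ncald it was 14691 bases, 1.71 and 3.94 times. For Vsnl1 and Hpcal1 it was within 0.921 to 1.02 times of both.

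**Figure D3:**
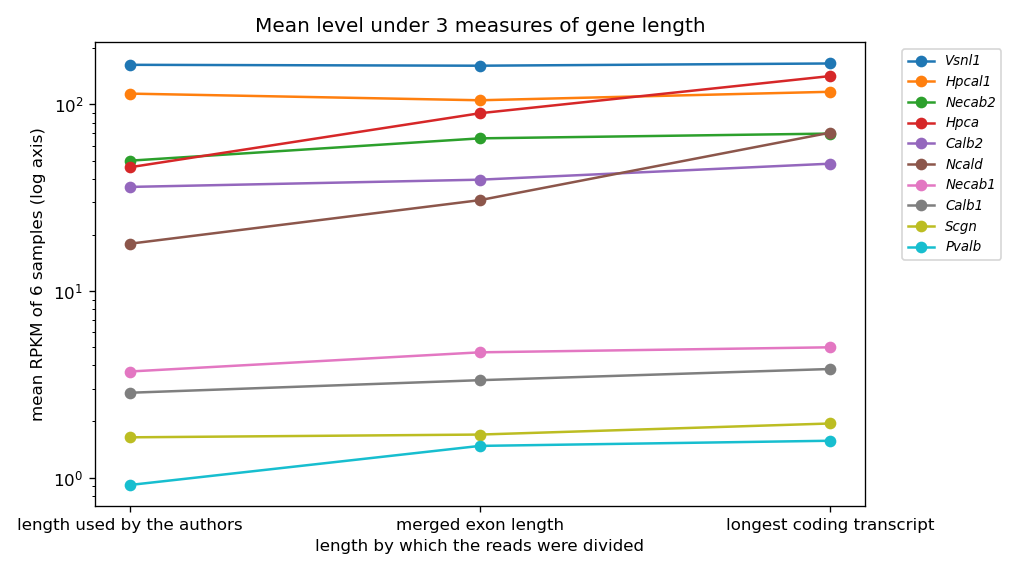
Mean RPKM of the 6 samples, on a log axis, for each gene with the length used by the authors, the merged exon length and the length of the longest coding transcript. The lines of Hpca and Ncald climb from 46.1 to 142 and from 17.9 to 70.5, while those of Vsnl1 and Hpcal1 stay nearly level.

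With merged exon lengths the mean of Hpca was 89.7, above Necab2 at 65.8. With the longest coding transcript it was 142, above Hpcal1 at 117, and Ncald rose from 17.9 to 70.5, level with Necab2 at 69.8. With deposited values Hpcal1 was above Hpca in 6 of 6 samples, by 1.30 ± 0.55 on the log2 scale (exact sign-flip permutation test, p = 0.0312). With merged lengths it was above in 4 of 6 samples, by 0.24 ± 0.55 (exact p = 0.375), and with the longest coding transcript in 3 of 6, by −0.27 ± 0.55 (exact p = 0.344). This pair was not among the neighbour pairs planned for testing, and these p-values were not adjusted. A change of length shifts the differences of all 6 samples nearly alike, so the 3 p-values mainly restate that change. Vsnl1 stayed the highest and Necab1, Calb1, Scgn and Pvalb the lowest 4 under all 3 lengths. A length divides the reads of both groups alike, so it bears on their comparison only through the pseudocount.

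Differences between Dbx1 and non-Dbx1 samples were tested with limma on log2(RPKM + 1). L2FC is the Dbx1 mean minus the non-Dbx1 mean on that scale, which understates changes of low genes. Pvalb and Scgn had reads in 2 samples each and were not among the genes tested. None of the 8 members tested had an FDR under 0.1 in limma, against 0.00568% of the 17614 genes tested, and voom on the recovered reads also gave 0. None had an unadjusted p under 0.05, against 5.20% of them. The groups did not overlap for 0 of the 10 members, against 10.6% of the genes tested. L2FC was below 0 for 7 of the 8 members, with a median of −0.18, and for 49.2% of all genes tested, with a median of 0.0089.

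**Figure D4:**
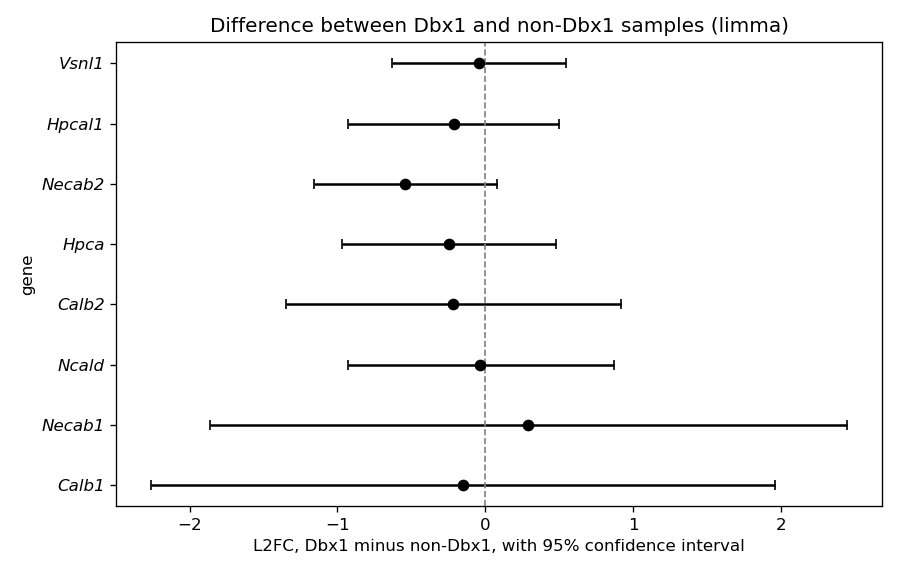
L2FC (Dbx1 minus non-Dbx1, log2 scale) of the 8 tested genes as points, with 95% confidence intervals from limma as bars, and a dashed line at 0. Every interval includes 0, with the narrowest for Vsnl1 (−0.63 to 0.55) and the widest for Necab1 (−1.86 to 2.45).

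Necab2 had the largest difference of the 8. Its L2FC was −0.54 (standard error 0.271, 95% confidence interval −1.16 to 0.08, limma FDR = 0.912). A two-sided exact permutation test gave p = 0.20, where 3 samples against 3 cannot go below 0.10. Without non-Dbx1 replicate 1 the Necab2 values of the groups did not overlap, which then held for 20.4% of the genes tested. The L2FC in that fit was −0.76, limma's unadjusted p was under 0.05 and limma FDR was 0.809. The share of all genes with such a p was not counted in that fit. With any other sample left out, the unadjusted p of Necab2 was not under 0.05.

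Vsnl1 had an L2FC of −0.04 ± 0.257 (standard error, limma FDR = 0.991), and the interval of the difference ran from 0.647-fold to 1.46-fold on that scale. For Hpca it was −0.25 and for Hpcal1 −0.21, with intervals from −0.97 to 0.48 and from −0.93 to 0.50. For Ncald it was −0.03, with an interval from −0.93 to 0.87. For Calb2 it was −0.22 (interval −1.35 to 0.92). The uneven genes were the least determined, with intervals from −2.26 to 1.96 for Calb1 and from −1.86 to 2.45 for Necab1. As ratios of RPKM + 1, not of RPKM, these run from 0.209-fold to 3.88-fold and from 0.275-fold to 5.46-fold. Limma FDR lay between 0.912 and 0.995 for the 8 genes. Leaving out 1 sample reversed the sign of L2FC for 7 of them, all but Necab2.

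Other EF-hand genes show the setting of the 10. Calm2 and Calm3 encode calmodulin, the general calcium sensor of all cells, and were higher than any member, with mean RPKM of 620.1 and 193. Of 9 genes for calmodulins and related CaBP proteins, 8 had reads and 6 were tested, with L2FC above 0 for 3 and below 0 for 3, from −0.28 for Caln1 to 0.71 for Cabp7. Cabp2 was listed at 0 in every sample. Of the 9 calmodulin targets (calcineurin and CaM kinase genes) all were tested, with L2FC from −0.78 for Camk2a to 0.80 for Camk4. Mean RPKM in that list ran from 1.09 for Camk2a to 106 for Ppp3r1, the regulatory subunit of calcineurin, and the list's median L2FC was 0.25. Camk4, with 14.5, 11.7 and 15.8 RPKM for Dbx1, against 9.91, 5.28 and 8.22 for non-Dbx1 neurons, did not overlap between groups (limma FDR = 0.912). It was 1 of 9 targets without overlap, against 10.6% of all genes tested.

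None of the relatives of the 4 sensors passed an FDR of 0.1. Of 9 such genes 6 were tested, with L2FC above 0 for 3 and below 0 for 3, and 4 (Ncs1, Hpcal4, Kcnip2 and Kcnip4) had an unadjusted limma p under 0.05, against 5.20% of all genes tested. Ncs1, which encodes neuronal calcium sensor 1, measured 43.4, 26.9 and 37.7 RPKM for Dbx1, against 44.4, 68.8 and 61.7 for non-Dbx1 neurons. Every non-Dbx1 sample was thus above every Dbx1 sample, by a narrow margin. Such a separation held for 1 of the 6 relatives tested, against 10.6% of all genes tested. The L2FC of Ncs1 was −0.68 (standard error 0.278, limma FDR = 0.912).

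Hpcal4, which encodes VILIP-2, measured 27.8, 66.2 and 11.3 RPKM for Dbx1, against 13.8, 8.61 and 5.57 for non-Dbx1 neurons, with an L2FC of 1.56 (limma FDR = 0.912). The potassium channel partners Kcnip2 and Kcnip4 had L2FC of 1.98 and 1.67 (limma FDR = 0.912 for both). Kcnip4 measured 22.4 and 21.2 RPKM in Dbx1 replicates 1 and 2, and between 2.39 and 4.16 in the other 4 samples. Kcnip2 measured 30.0 and 48.8 in the same 2 samples and at most 8.45 in the others. For Hpcal4, Kcnip2 and Kcnip4 the groups overlapped, since Dbx1 replicate 3 lay among the non-Dbx1 samples. The photoreceptor genes Rcvrn, Guca1a and Guca1b had mean RPKM of 0.0202, 1.46 and 0.137.

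Of the other buffers, Ocm, the oncomodulin relative of parvalbumin, was listed at 0 in all samples, S100g had reads in 2 samples, and Necab3 measured between 2.33 and 15.0 RPKM with an L2FC of 0.42. For the S100 genes, which are also expressed by glia, L2FC was below 0 for all 6 tested, from −1.14 for S100a13 to −0.29 for S100b, and none had an unadjusted limma p under 0.05. S100a10 had the highest mean of them at 39.8 RPKM, and S100a4 was listed at 0. The S100 sum was highest, at 234 RPKM, in non-Dbx1 replicate 1, the sample with the highest blood and oligodendrocyte sums. S100a10 went the other way and was at its lowest there, 13.3 RPKM against 70.9 and 63.4 in non-Dbx1 replicates 2 and 3. The other S100 genes with reads were highest there. The astrocyte genes summed to between 21.4 and 26.6 in the Dbx1 samples and between 24.4 and 39.5 in the non-Dbx1 samples. The 5 markers differed in direction, with L2FC above 0 for 2 (Gfap 1.11 and Aqp4 0.16) and below 0 for 3. The part of astrocytes, oligodendrocytes and blood in the S100 values was not tested.

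Among the 8 members with RPKM above 0 in at least 4 samples, Necab1, Calb1 and Calb2 had the largest SD of log2(RPKM + 1) over the 6 samples (1.27, 1.23 and 0.722). Scgn and Pvalb, with reads in 2 samples each, had SD of 1.39 and 0.983 and were left out here. Genes with the most similar pattern were looked up among 7054 or 7055 tested genes with a mean RPKM of at least 5. For Calb1 the closest was Hcrtr1, the orexin receptor 1 gene (Pearson's r = 0.989 across 6 samples), followed by Gm20768 (r = 0.981). Hcrtr1 measured 12.8, 0.919 and 13.1 RPKM for Dbx1, against 0, 27.9 and 13.9 for non-Dbx1 neurons, low in the same 2 samples as Calb1. For Calb2 they were Nacad (r = 0.987) and Adprhl2 (r = 0.974), and Trappc13 was among the closest for Necab1 (r = 0.970). These values rest on 6 points each, and 22 genes reached r of 0.95 with Calb1, 10 with Necab1 and 8 with Calb2. The named genes were picked as the highest of 7054 or 7055, and how many would reach such r by chance was not tested. Pearson's r also leaves out the size of a change, and Gm20768 measured only between 4.04 and 8.12 RPKM.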

How the data were processed

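Neurons were pooled by 15 per sample, and single-end reads of SMART-Seq v4 complementary DNA were sequenced. The authors aligned reads to mm10 with Tophat2, sorted them with Samtools, counted them on genes with HTSeq without strand, and deposited RPKM values normalized by exon length from an Ensembl annotation whose release is not given in the sources used here. The deposited RPKM are not scaled between samples. The authors tested counts with DESeq2. Here the deposited RPKM were tested on the log scale, so limma version 3.58.1 in R 4.3.3 (lmFit, then eBayes with trend) was run on log2(RPKM + 1) for the 17614 genes above 0 in at least 3 samples, with Benjamini-Hochberg FDR over all of them and a threshold of 0.1. It was tested on simulated data.

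Library totals were the commonest total that the RPKM and merged exon length of genes implied for a single read, and a gene's length was the distinct-exon sum, the merged length or else the smallest whole number that made its reads whole within 0.001. Where only the smallest number served, the true read number may be a multiple of it. Positions and lengths came from GENCODE vM21 (GRCm38, the build of mm10), which matched 47214 gene names. Coding sequences were aligned with Biopython 1.88. Permutation tests were exact and run in Python 3.11.15 with scipy 1.17.1. Protein sequences were not used here, so the planned count of EF-hand loops was not made.

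Labels name the samples Pos1 to Neg3, each from a different animal. Deviations from the group means correlated at −0.107, 0.0248 and −0.0522 between same-numbered samples, so the numbers were not taken as pairs. The members, lists and tests were chosen with earlier results of these data known. All 10 members are named, and of the other lists the genes with the highest or lowest mean, the extreme L2FC or an unadjusted p under 0.05, except for results that are not reported here. The alternatives were other pseudocounts, filters, scalings, lengths, a replicate block, voom on recovered reads and each sample left out.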

Additional observations from a re-analysis of the deposited data

How the results depend on the processing

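The absence of members with FDR under 0.1 held in all alternatives, with a lowest FDR of 0.784. The count over all genes, 1 in the main analysis, was 0 with a pseudocount of 0.1, with genes above 0 in at least 1 sample, with the replicate block (sample numbers as blocks) and with voom on recovered reads, 3 without trend, and 0 to 1 with a sample left out. The block gave an unadjusted p under 0.05 for 819 genes against 916, and changed no call for a member. Leaving out a sample gave 0 to 1 members with an unadjusted p under 0.05 (Necab2 without non-Dbx1 replicate 1). The share of all genes with such a p was not counted in these fits, so that count cannot be set against it. The groups then did not overlap for 0 to 2 of the 8 tested members, against 17.6% to 21.8% of the genes tested. Pvalb without Dbx1 replicate 2 and Scgn without non-Dbx1 replicate 3 also did not overlap, but were not among the genes tested. The smallest permutation p was reached by 0 to 1 of the 8 (Necab2, or Vsnl1 without non-Dbx1 replicate 3), against 8.98% to 11.7%. These shares were computed after seeing the data.

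Of 112 alternative L2FC values, 15 had the opposite sign, all with FDR above 0.9. With a sample left out, L2FC ranged from −0.99 to 0.58 for Calb1, −0.52 to 0.32 for Calb2, −0.47 to 0.01 for Hpca, −0.42 to 0.10 for Hpcal1, −0.43 to 0.26 for Ncald, −0.22 to 0.19 for Vsnl1, −0.79 (without Dbx1 replicate 1) to 1.03 for Necab1, and kept its sign for Necab2. Voom gave 0.09 for Calb1 and −0.08 for Necab1, and quantile normalization 0.01 for Vsnl1. In the order of levels, 6 of the 10 members kept their place with medians, 6 in the Dbx1 samples alone, and 5 with the longest coding transcript, an alternative chosen after seeing the data. With 3 samples a group, differences of the uneven genes were poorly determined, and counts under 3 reads were below the limit of detection.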
